A study of Mus musculus with 6 samples.

Results

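The haematopoietic heptad is a set of 7 transcription factors, Gata2, Runx1, Tal1, Erg, Fli1, Lmo2 and Lyl1, whose binding overlaps at many regulatory regions of blood stem and progenitor cells. The members were taken by gene symbol from the table of counts, where all 7 of 7 were found among 29872 symbols, and all 7 had enough counts to be tested among 16221 tested genes. They were compared between a CML group (chronic myeloid leukaemia, 3 libraries) and a WT group (wild type, 3 libraries), each a bulk RNA sequencing library of mouse bone marrow cells on the C57BL/6 background. In both groups the cells were untreated, had been expanded ex vivo, and came from a sort for cells that lack lineage markers and carry Sca1, cKit and CD150, a gate that enriches for stem cells. The labels name no allele, driver or promoter for the CML group and no age, and it is not stated whether replicates stem from different mice or different cultures. P-values therefore measure how much these libraries vary, and that variation may be technical.

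As background, the factors belong to different protein families. GATA2 is a zinc finger factor that binds GATA motifs, RUNX1 binds DNA through its Runt domain with the help of the non-DNA-binding partner CBFB, and FLI1 and ERG are closely related ETS factors. TAL1 (also called SCL) and its paralogue LYL1 are basic helix-loop-helix factors that bind E-box motifs together with E proteins such as those encoded by Tcf3, Tcf4 and Tcf12. LMO2 does not bind DNA itself. It bridges TAL1 or LYL1 and a GATA factor, and recruits LDB1, which in turn is held by SSBP proteins. Many of the 7 genes carry enhancers bound by the other members, and most members are known for their role in making or keeping blood stem cells.

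Levels are given as CPM, the count of a gene relative to the TMM-scaled library total, with SD for the standard deviation of the 3 libraries of a group. Library totals ran from 13323469 to 17926847 counts, and the scarcest member in any library, Erg in CML replicate 2, still had 433 counts. The gate genes Kit, Ly6a (Sca1) and Slamf1 (CD150) were detected in every library, at 202 to 402, 40.0 to 172 and 11.2 to 31.8 CPM. These ranges pool both groups, and Slamf1 was lower in CML, as given with the marker lists. Cd3e, which defines T cells, was at or below 0.13 CPM in each library.

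Runx1 rose in CML, Lmo2 and Erg fell, and the other 4 factors did not pass the test. In the edgeR quasi-likelihood test with Benjamini-Hochberg adjustment over all 16221 genes, 3 of the 7 members were called at an adjusted p under 0.05, 1 higher and 2 lower. Over all tested genes 17.4% were called, 10.2% higher and 7.20% lower in CML. The median log2 fold change (CML minus WT) of the 7 was 0.05, against -0.0043 for all tested genes. For 4 of the 7 members the ranges of the groups were separate, as they were for 35.0% of all tested genes. The whole-series split was 1652 genes higher and 1168 lower, or 2065 and 732 when scaled by library totals alone. In bulk samples a change in the share of cells that express a gene and a change in RNA per cell cannot be told apart.

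**Figure D1:**
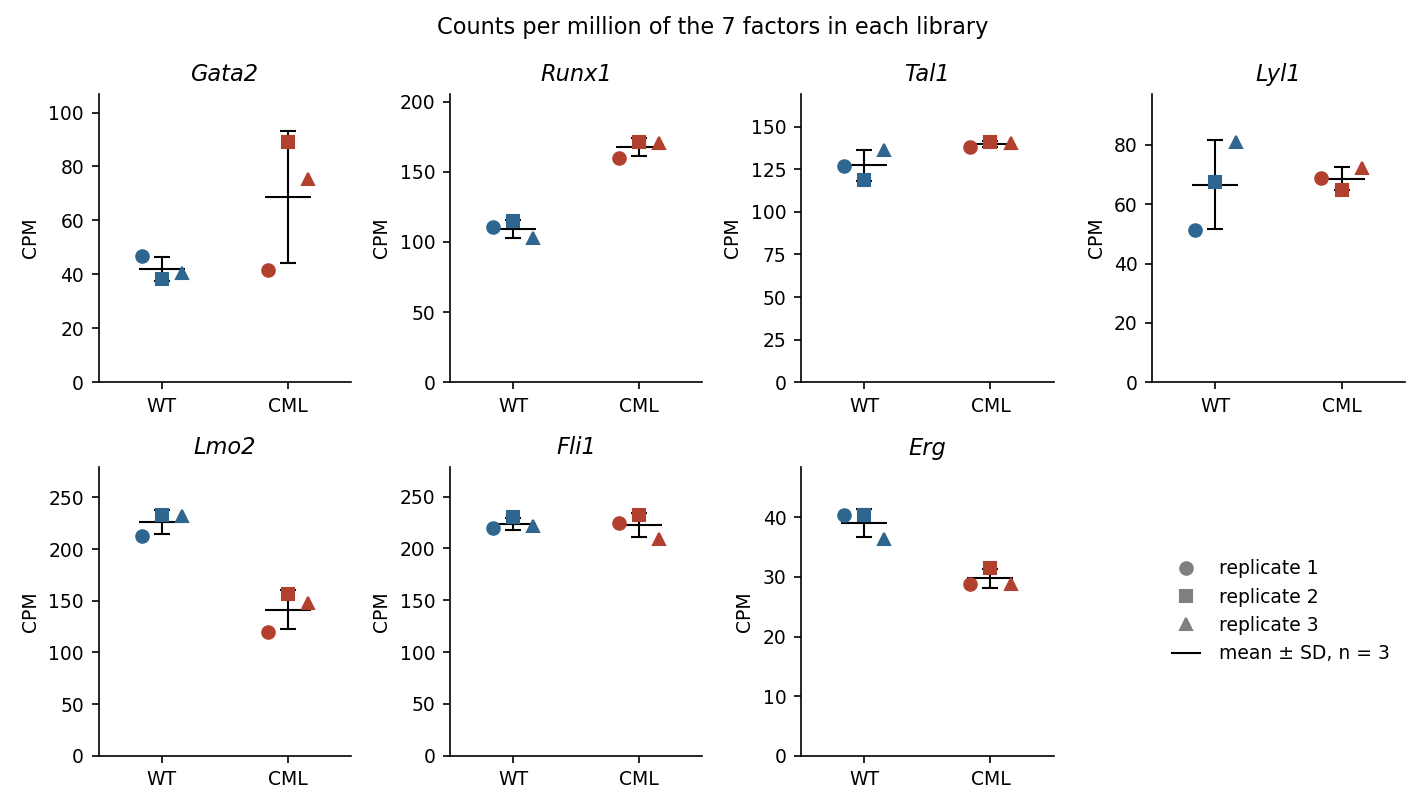
CPM of each of the 7 factors (vertical axes, each from 0) in the 3 WT and 3 CML libraries, with 1 symbol per replicate and the mean ± SD in black. The Runx1 points of CML lie above all WT points, those of Lmo2 and Erg lie below them, and for Gata2 the CML replicate 1 point (41.7 CPM) lies among the WT points.

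Runx1, which is required for blood stem cells to form from endothelium and is recurrently mutated or translocated in leukaemia, lies on chromosome 16 (92601466 to 92826149, minus strand, GRCm38). It was at 160.0, 171 and 171 CPM in CML replicates 1, 2 and 3 and at 110.5, 115 and 102 CPM in WT replicates 1, 2 and 3. The lowest CML library lay well above the highest WT library. The mean was 167 ± 6.40 CPM against 109 ± 6.42 CPM (SD, n = 3), 1.53-fold higher with a 95% confidence interval from 1.30 to 1.80 (log2 fold change 0.61, SE 0.11, adjusted p = 0.00191, edgeR). The call held in each of 13 alternative fits, with log2 fold changes from 0.57 to 0.71. The counts are summed over the gene, so they do not tell the distal and proximal promoters of Runx1 apart. An antisense gene model, Gm26626, shares 106 exon bases with Runx1 and held between 1 and 6 counts per library.

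Lmo2, the bridging factor, lies on chromosome 2 (103957986 to 103981878, plus strand). Its level was 120.0, 156 and 148 CPM in CML replicates 1, 2 and 3 and 213, 233 and 232 CPM in WT. The groups stood far apart, with CML replicate 1 the lowest of all. With means of 141 ± 18.96 CPM in CML and 226 ± 11.4 CPM in WT, Lmo2 fell by 0.68 on the log2 scale (SE 0.12, 95% confidence interval -0.94 to -0.41, adjusted p = 0.00239, edgeR), to 0.625 of the WT level. It was called in all 13 alternative fits, with log2 fold changes from -0.75 to -0.58.

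Erg, an ETS factor needed for stem cells to persist in adult bone marrow, lies on chromosome 16 (95359169 to 95586593, minus strand). It was at 28.9, 31.6 and 28.8 CPM in CML and at 40.4, 40.3 and 36.3 CPM in WT. The groups did not overlap, and the gap between the highest CML and the lowest WT library was small beside that of Lmo2. Means of 29.8 ± 1.59 and 39.0 ± 2.34 CPM gave a log2 fold change of -0.39 (SE 0.12, 95% confidence interval -0.65 to -0.14, adjusted p = 0.0379, edgeR). Leaving out CML replicate 1, 2 or 3 ended that call (adjusted p = 0.0729, 0.0725 and 0.138), and so did leaving out WT replicate 1 or 2 (adjusted p = 0.102 and 0.156). Scaled by library totals it was lost as well (-0.29, adjusted p = 0.133), while the direction was the same in all 13 fits.

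Fli1, the other ETS member and a regulator of megakaryocyte and endothelial genes, lies on chromosome 9 (32422204 to 32542861, minus strand). It was at 225, 232 and 209 CPM in CML and 219.7, 230.1 and 221 CPM in WT. The values of the groups were mixed. The log2 fold change was -0.01 (SE 0.11, adjusted p = 0.964, edgeR), with a 95% confidence interval from -0.24 to 0.22, so these libraries leave room for changes of either sign up to 1.16-fold higher or to 0.846 of the WT level. Fli1 and Erg, near relatives in the same family, are set against each other by their ratio within each library, given with the other ratios.

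Gata2, which is required for stem cell expansion and also drives mast cell and basophil genes, lies on chromosome 6 (88193891 to 88207032, plus strand). It was at 41.7, 89.2 and 75.3 CPM in CML and at 47.0, 38.2 and 40.7 CPM in WT. CML replicates 2 and 3 lay above every WT library, and CML replicate 1 lay among them. The means were 68.7 ± 24.4 and 41.9 ± 4.52 CPM. The log2 fold change was 0.71, the largest of the 7 in size, but it did not pass (SE 0.25, 95% confidence interval 0.13 to 1.29, adjusted p = 0.0931, edgeR). Without CML replicate 1 it was 0.97 and passed (adjusted p = 2.74e-04), and it also passed with the DESeq2 Wald test (0.71, adjusted p = 0.00882). Without CML replicate 2 it was 0.48 (adjusted p = 0.204).

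Tal1, a founding factor of the blood lineage, lies on chromosome 4 (115056426 to 115071755, plus strand). It was at 138, 141 and 140.3 CPM in CML and at 127, 118.5 and 136.5 CPM in WT. Each CML value lay above each WT value, but by little beside the spread of the WT libraries. The log2 fold change was 0.14 (SE 0.11, 95% confidence interval -0.10 to 0.37, adjusted p = 0.425, edgeR).

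Lyl1, the paralogue that can stand in for Tal1 in adult stem cells, lies on chromosome 8 (84701457 to 84704715, plus strand). Its level was 68.9, 64.6 and 72.4 CPM in CML and 51.1, 67.4 and 81.1 CPM in WT. The WT libraries spanned the whole CML range, and no other member varied as much among WT libraries relative to its mean (66.6 ± 15.0 CPM). The log2 fold change was 0.05 (SE 0.15, 95% confidence interval -0.28 to 0.37, adjusted p = 0.875, edgeR), and it turned to -0.12 without WT replicate 1. Lyl1 shares 4 exon bases with Nfix on the opposite strand, which held 122 to 215 counts per library. The strand setting of the counting is not given in the sources used here.

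**Figure D2:**
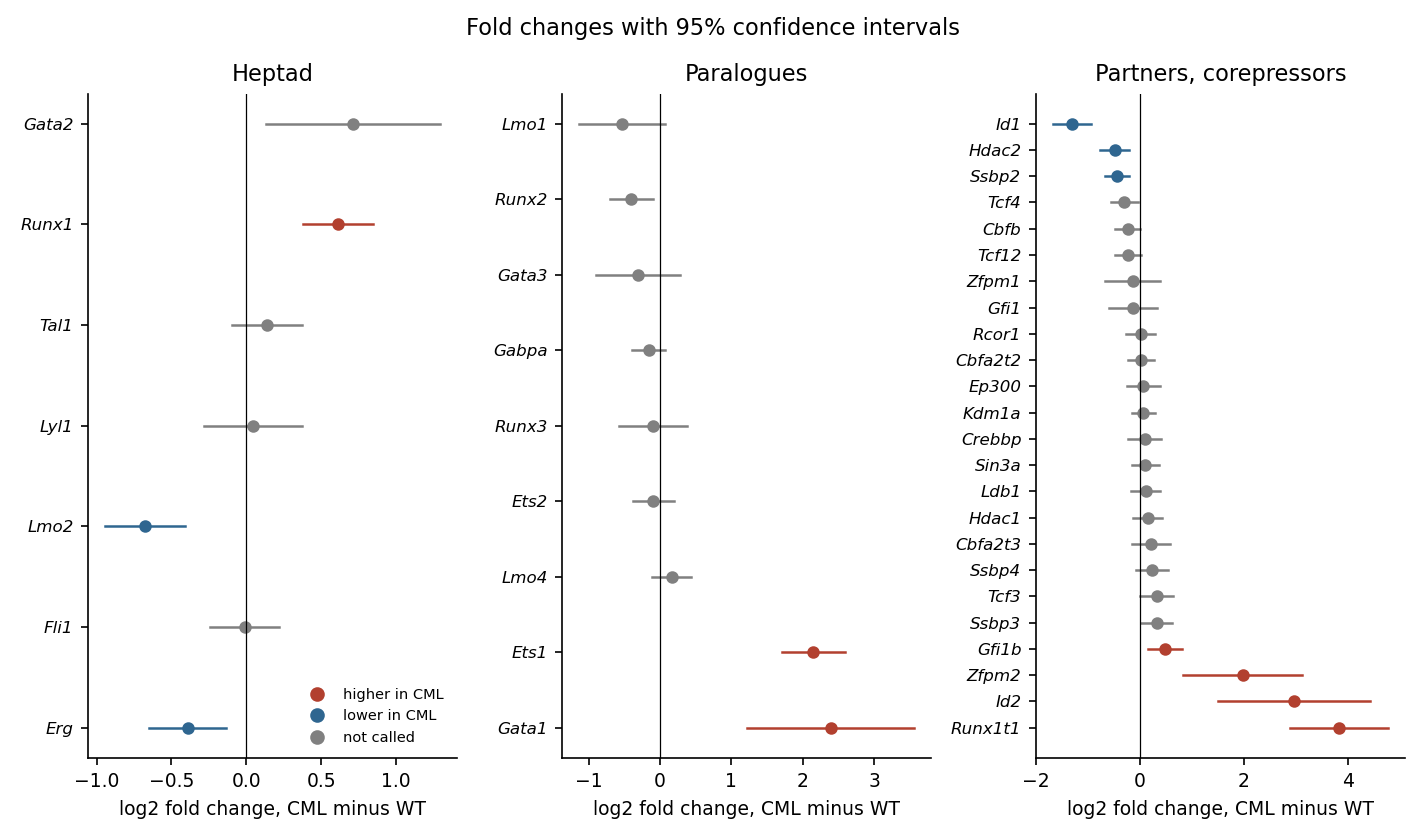
Log2 fold changes of CML minus WT (horizontal axes, scaled per panel) with 95% confidence intervals for the 7 factors, the 9 tested paralogues and the 24 tested partners and corepressors. Red points were called higher, blue points lower and grey points not called, and among the 7 factors Runx1 is red and Lmo2 and Erg are blue.

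To show sequence next to these values, the 250 bases before annotated starts of the members were taken from a table of RefSeq promoters (GRCm38.p6), in which 5 of the 7 genes were matched, with 10 starts in all. The promoters of Fli1 and Lmo2 were not analysed here. Each window was searched on both strands for the letters that the 4 DNA-binding families are known to prefer. These were GATAA for GATA factors, AGGAAG or CGGAAG for ETS factors, CAGNTG for the E-box, and TGTGGT or TGCGGT for RUNX factors, and the motifs may overlap one another. The 4 windows printed are 1 for each of Runx1, Erg, Tal1 and Lyl1: the window with matches where it holds no annotated exon, and for Runx1 start 2, because start 1 holds 75 annotated exon bases. Capitals mark the matches.
Runx1, start 2, chr16:92697330-92697579, minus strand: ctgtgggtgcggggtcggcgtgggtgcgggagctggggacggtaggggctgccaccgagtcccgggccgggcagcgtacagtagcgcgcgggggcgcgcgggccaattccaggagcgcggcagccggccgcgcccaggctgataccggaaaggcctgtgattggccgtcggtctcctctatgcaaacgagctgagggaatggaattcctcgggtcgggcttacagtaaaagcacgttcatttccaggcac
Erg, start 3, chr16:95459349-95459598, minus strand: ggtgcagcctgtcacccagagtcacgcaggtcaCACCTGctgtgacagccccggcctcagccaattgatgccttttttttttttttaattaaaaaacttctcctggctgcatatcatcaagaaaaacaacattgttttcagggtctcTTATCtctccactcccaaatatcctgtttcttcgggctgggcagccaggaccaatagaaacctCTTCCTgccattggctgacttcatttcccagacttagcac
Tal1, start 1, chr4:115056176-115056425, plus strand: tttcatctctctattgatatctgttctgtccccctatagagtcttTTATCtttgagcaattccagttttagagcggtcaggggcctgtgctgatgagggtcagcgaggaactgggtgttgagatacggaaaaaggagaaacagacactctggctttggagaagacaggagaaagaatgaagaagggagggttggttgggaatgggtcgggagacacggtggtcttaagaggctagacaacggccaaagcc
Lyl1, single start, chr8:84701207-84701456, plus strand: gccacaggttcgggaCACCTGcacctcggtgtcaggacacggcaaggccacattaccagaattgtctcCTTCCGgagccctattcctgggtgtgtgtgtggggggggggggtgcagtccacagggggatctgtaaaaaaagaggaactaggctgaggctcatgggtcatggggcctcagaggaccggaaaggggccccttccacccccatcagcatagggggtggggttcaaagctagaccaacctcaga
The Erg window, which lies inside the gene and in no annotated exon, held an E-box, a GATA and an ETS match, 217, 103 and 40 bases before the start, all on the opposite strand. The Lyl1 window held an E-box and an ETS match (235 and 182 bases before the start), the Tal1 window 1 GATA match (205 bases before), and the Runx1 window at start 2 none of the 4. The Runx1 window at start 1, not printed, held 1 ETS and 2 E-box matches, while the windows at Erg starts 1 and 2, Tal1 start 2 and both Gata2 starts held none. Over the 10 member windows, a GATA match was found in 2, an ETS match in 3, an E-box match in 3 and a RUNX match in 0. Over all 32851 windows of this length in the RefSeq set the shares were 22.6%, 39.2%, 44.8% and 18.6%. These matches describe letters near starts only. The enhancers for which the 7 genes are best known lie outside such windows and were not analysed here.

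The levels of the 7 genes were compared with each other per kilobase of merged exon length. In WT the order was Lmo2 (104 ± 5.26 CPM per kilobase), Fli1 (64.2 ± 1.61), Lyl1 (37.0 ± 8.33), Tal1 (29.1 ± 2.06), Erg (11.3 ± 0.68), Runx1 (9.09 ± 0.53) and Gata2 (7.77 ± 0.84). Of these neighbours, the values of Lyl1 and Tal1 and those of Runx1 and Gata2 overlapped between libraries. In CML the first 4 places were held by Lmo2 (65.3 ± 8.75), Fli1 (63.7 ± 3.32), Lyl1 (38.1 ± 2.15) and Tal1 (32.0 ± 0.36), followed by Runx1 (13.9 ± 0.53), Gata2 (12.7 ± 4.53) and Erg (8.58 ± 0.46). The CML values of Lmo2 and Fli1 overlapped on this scale but not per kilobase of the longest transcript, and did not overlap in WT on either. Also overlapping in CML were those of Runx1 and Gata2 and of Gata2 and Erg. The levels of Runx1 and Gata2 depend on the length used, and Runx1 and Erg trade places in WT. Per kilobase of the longest transcript Runx1 was at 28.6 in CML and 18.7 in WT, and Gata2 at 19.2 and 11.7, so that Runx1 stood above Erg in both groups, while Gata2 kept its place. Among 15805 tested genes with a length, Lmo2 lay between the 94.4th and 97.3rd percentile of the level per kilobase in all 6 libraries, and Erg between the 63.1st and 71.2nd.

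The makeup of the set differed between the groups, mainly in Lmo2, the most abundant member per kilobase in WT. Its share of the summed level per kilobase of the 7 genes was 39.6, 40.4 and 39.2% in WT replicates 1, 2 and 3 and 25.3, 29.2 and 28.8% in CML. Runx1 took 3.70, 3.60 and 3.12% in WT and 6.07, 5.78 and 5.99% in CML. Tal1, which was not called, took 11.7, 10.2 and 11.4% in WT and 14.4, 13.1 and 13.5% in CML, also without overlap. The shares of Gata2 and Erg were separate too, but by little. Fli1 took 23.2 to 25.4% in WT and 25.3 to 29.4% in CML, with a small overlap between the groups. The summed level per kilobase was 248, 266 and 273 in WT and 219, 247 and 237 in CML, 2 ranges that only just miss each other and that overlap with the longest transcript length (294 to 320.4 against 257 to 295). Shares add up to a fixed total, so each depends on the others.

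**Figure D3:**
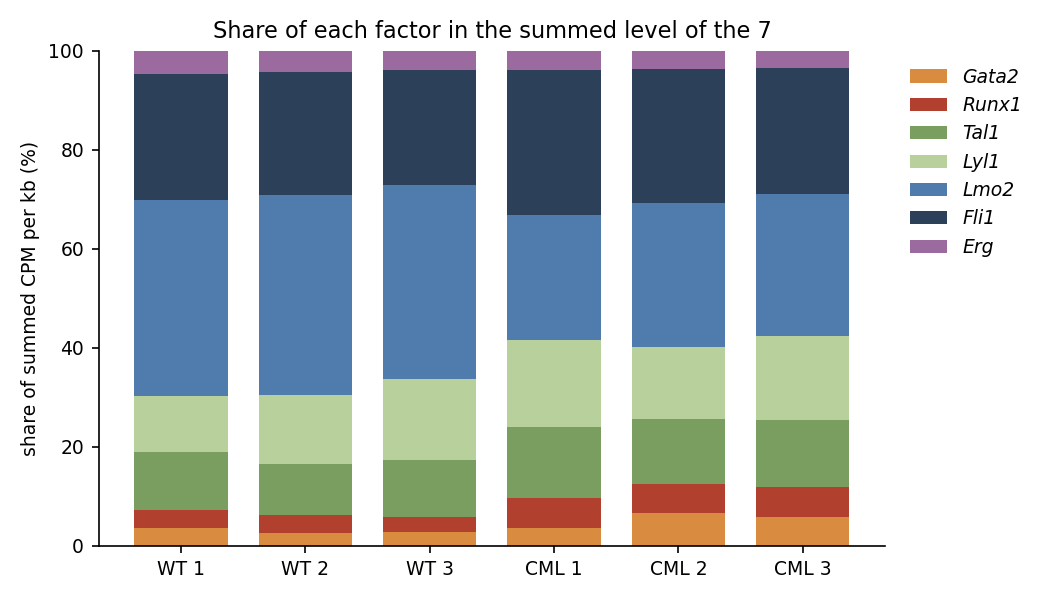
Share of each factor (vertical axis, percent) in the summed CPM per kilobase of merged exon length of the 7 factors, with 1 bar per library. The Lmo2 band is 39.2 to 40.4% in WT and 25.3 to 29.2% in CML. The Runx1 and Tal1 bands are wider in each CML bar than in each WT bar.

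Ratios of pairs of genes within a library do not depend on the scaling between libraries, and 6 pairs were tested by exact permutation (two-sided), whose smallest possible p at this group size is 0.1. Lmo2 against Ldb1, the adaptor it recruits, stood at 1.26, 1.71 and 1.47 counts per count in CML and 2.85, 2.66 and 2.25 in WT, a difference of -0.81 on the log2 scale. Erg against Fli1 stood at 0.128, 0.136 and 0.137 in CML and 0.184, 0.175 and 0.164 in WT, a difference of -0.38. In both pairs the CML libraries lay below all WT libraries (exact permutation p = 0.1 each, adjusted p = 0.12 over the 6 pairs). Tal1 against Lyl1 did not separate, at 2.01, 2.19 and 1.94 in CML and 2.48, 1.76 and 1.68 in WT (exact permutation p = 0.7, adjusted 0.7). Runx1 against Runx3, a paralogue of lymphoid and myeloid cells, stood at 26.8, 19.3 and 16.7 in CML and 11.1, 12.2 and 13.9 in WT, without overlap (exact permutation p = 0.1, adjusted p = 0.12, difference 0.73). In the pairs that separated here, Lmo2, Erg and Runx1 are the genes called in the edgeR test. The ratios rest on the same counts and are no support apart from those calls. Neither Tal1 nor Lyl1 was called.

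Paralogues of the members were examined next. Of the 14 listed, 9 were tested, 2 rose, 0 fell and 7 were not called, with a median log2 fold change of -0.10 (17.4% of all genes were called). Leaving out 1 library gave 1 or 2 higher, and 1 lower without CML replicate 1 or WT replicate 1. The replicate block and the fit with no low-count filter each gave 1 higher and 1 lower. Gata1, which drives erythroid, megakaryocyte and mast cell genes, was at 13.6, 47.8 and 29.7 CPM in CML and 6.27, 4.42 and 6.60 CPM in WT. Every CML library lay above every WT library, and the CML libraries were uneven. Gata1 rose by 2.39 on the log2 scale (SE 0.48, adjusted p = 0.0209, edgeR). Leaving out CML replicate 3 ended the call (adjusted p = 0.0635), as did leaving out WT replicate 1, 2 or 3 (adjusted p = 0.153, 0.105 and 0.0648) or using no low-count filter (adjusted p = 0.0878). The count ratio of Gata2 to Gata1 was 3.06, 1.87 and 2.54 in CML and 7.49, 8.64 and 6.16 in WT, a log2 difference of -1.59 with no overlap (exact permutation p = 0.1, adjusted p = 0.12).

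Ets1, an ETS factor prominent in lymphoid and endothelial cells, was at 28.4, 39.2 and 29.7 CPM in CML and 6.99, 5.56 and 9.34 CPM in WT. It rose by 2.15 (SE 0.20, adjusted p = 1.90e-05, edgeR) and was called in all 13 alternative fits. With Fli1 not called, the count ratio of Fli1 to Ets1 was 7.92, 5.91 and 7.06 in CML against 31.4, 41.4 and 23.7 in WT (log2 difference -2.18, exact permutation p = 0.1, adjusted p = 0.12). Ets2 and Gabpa, broadly expressed relatives, had log2 fold changes of -0.09 and -0.16 and were not called. Runx2, best known from bone, was at 25.5 to 32.1 CPM in CML and 33.7 to 43.5 CPM in WT. These ranges were separate, but the log2 fold change of -0.40 did not pass (adjusted p = 0.0645, edgeR). Runx3, Gata3, Lmo1 and Lmo4 had log2 fold changes of -0.10, -0.30, -0.53 and 0.16 and were not called. Tal2 and Fev, the closest relatives of Tal1 and of Erg and Fli1 in this list, held 0 to 5 counts per library and were not tested.

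**Figure D4:**
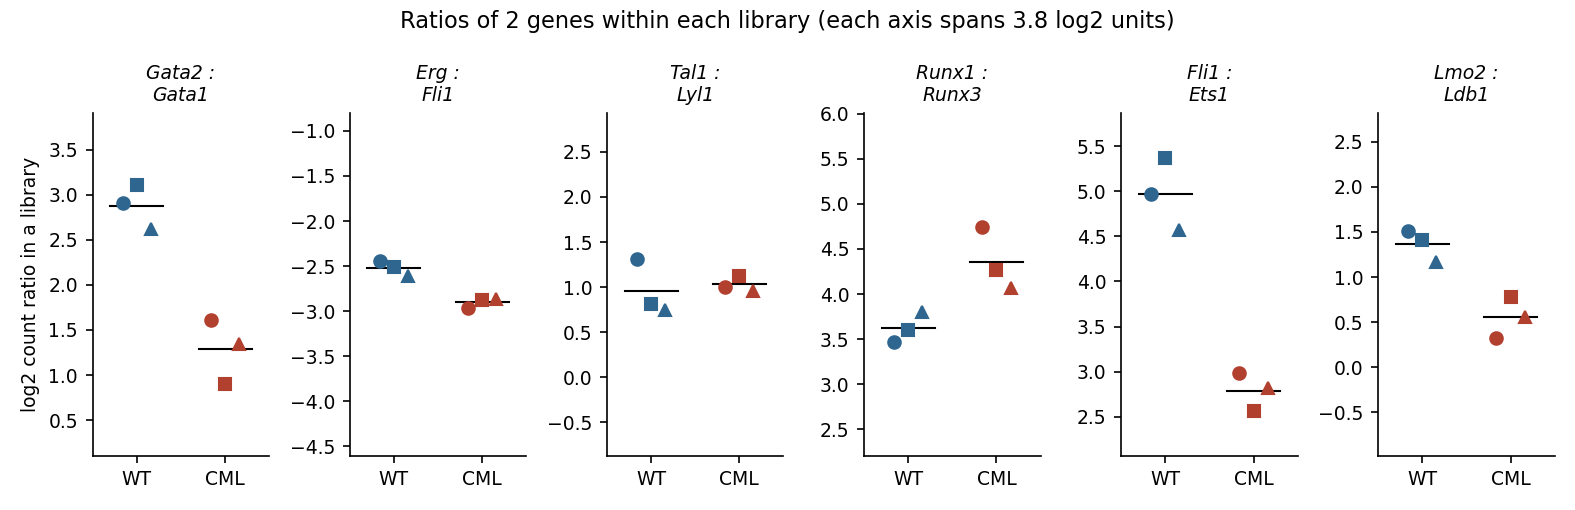
Log2 count ratios of 6 gene pairs within each library (vertical axes, each spanning the same number of log2 units), with 1 symbol per replicate and the group mean as a line. The groups separate in 5 of the 6 pairs, with the widest gap for Fli1 to Ets1, and mix for Tal1 to Lyl1. Each of the 5 holds a gene called in the edgeR test, so their separation is no support apart from those calls.

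Among partners and corepressors, 24 of 26 were tested, 4 rose, 3 fell and 17 were not called, beside the 17.4% of all genes called. Leaving out 1 library moved these counts to between 1 higher and 2 lower (without WT replicate 1) and 5 higher and 6 lower (without WT replicate 3). Of the 4 that rose, Runx1t1 and Zfpm2 passed the low-count filter only through the CML libraries, where they are high. Ldb1 had a log2 fold change of 0.11 (95% confidence interval -0.17 to 0.39), and Cbfb, the partner of RUNX1, -0.24 (-0.48 to 0.00), and neither was called. The E protein genes Tcf3, Tcf4 and Tcf12 had values of 0.32, -0.30 and -0.23, and the coregulators Kdm1a, Rcor1, Sin3a, Ep300 and Crebbp lay between 0.01 and 0.10. Ssbp2, which holds LDB1, was at 82.5, 90.2 and 84.1 CPM in CML and 122, 118 and 109.9 CPM in WT. It fell by 0.45 (SE 0.11, adjusted p = 0.0123, edgeR), and missed the threshold when CML replicate 3 or WT replicate 2 was left out (adjusted p = 0.0624 and 0.0643). Its relatives Ssbp3 and Ssbp4 had log2 fold changes of 0.32 and 0.23 and were not called.

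The inhibitors of E proteins moved in opposite directions. Id1 fell by 1.31 (SE 0.17, adjusted p = 2.00e-04, edgeR), from 33.9, 40.2 and 47.5 CPM in WT to 20.0, 15.0 and 13.9 CPM in CML, and was called in all 13 alternative fits. Id2 rose by 2.97 (SE 0.57, adjusted p = 0.0264, edgeR), from 6.09, 4.99 and 8.28 CPM in WT to 22.5, 84.0 and 46.0 CPM in CML. The Id2 call ended when CML replicate 3 (adjusted p = 0.0805) or any WT replicate (adjusted p = 0.154, 0.121 and 0.0584 for replicates 1, 2 and 3) was left out, and with no low-count filter (adjusted p = 0.0662). Id3 and Id4 held at most 3 counts in any library.

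Runx1t1, which encodes the ETO corepressor known as a fusion partner of RUNX1 in leukaemia, had 40, 26 and 33 counts in CML and 2, 3 and 2 counts in WT. The log2 fold change was 3.84 (SE 0.43, adjusted p = 7.14e-05, edgeR), for a gene that was scarce in CML and that WT counts alone would have kept out of the test. Its relatives Cbfa2t2 and Cbfa2t3, of which the latter encodes the ETO2 protein found with TAL1, had log2 fold changes of 0.03 and 0.21 and were not called. Gfi1b, a repressor of erythroid and megakaryocyte cells, rose by 0.47 (adjusted p = 0.0464, edgeR). Leaving out any library but WT replicate 3 ended the Gfi1b call (adjusted p from 0.0516 to 0.222), as did limma-voom (adjusted p = 0.0548) and using no low-count filter (adjusted p = 0.0713). Hdac2, a histone deacetylase gene, fell by 0.49 (adjusted p = 0.0178, edgeR), and was not called when CML replicate 2 or 3 or WT replicate 1 or 2 was left out (adjusted p = 0.0647, 0.0915, 0.0545 and 0.0994). Zfpm2, a cofactor of GATA proteins, held 11 to 15 counts per library in CML and 2 to 6 in WT, which alone would not have entered the test either (log2 fold change 1.98, adjusted p = 0.0220, edgeR). Zfpm2 was not called when CML replicate 1 or 2 or WT replicate 1 or 3 was left out (adjusted p = 0.055, 0.0663, 0.112 and 0.0681), nor with the DESeq2 Wald test (adjusted p = 0.0799). Zfpm1, the cofactor of GATA1 also called FOG1, had a log2 fold change of -0.14 and was not called.

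Genes reported as targets of heptad members went both ways. Of 26 listed, 25 were tested, 5 rose, 5 fell and 15 were not called, with a median log2 fold change of -0.13, beside the 10.2% of all genes called higher and 7.20% lower. Of the 5 that rose, 1 passed the low-count filter only through the CML libraries, where it is high. Leaving out 1 library moved the counts to between 2 and 4 higher and between 3 and 5 lower, with 2 higher when CML replicate 3 or either of WT replicates 1 and 2 was left out. Gata1 and Gfi1b, which are also in this list, were among the calls lost in each of those cases. Kdr and Esam, known from endothelium, fell by 1.77 and 1.22 (adjusted p = 0.00179 and 0.00597, edgeR). Bcl11a, a repressor of fetal globin, rose by 1.24 (adjusted p = 1.55e-05, edgeR), and these 3 calls held in each of 13 alternative fits. Cd34 and Kit, surface genes with well-known heptad-bound enhancers, had log2 fold changes of -0.03 and 0.08 and were not called. In the list of 18 other progenitor factors 4 rose, 2 fell and 12 were not called (median 0.07), and leaving out 1 library moved this to between 1 higher (without CML replicate 2, or without WT replicate 2) and 3 higher, and to between 0 lower (when CML replicate 1 or either of WT replicates 1 and 2 was left out) and 3 lower. Hlf, a stem cell factor, fell by 1.36 (adjusted p = 0.0229, edgeR), and was not called after leaving out CML replicate 1 or either of WT replicates 1 and 2 (adjusted p = 0.0678, 0.141 and 0.0764) and with no low-count filter (adjusted p = 0.102).

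Many genes of a joint list of mast cell and basophil markers differed between the groups as well, and Gata2 and Gata1 are also active in these cells. The 24 mast cell and basophil genes summed to 3204, 10504 and 6719 CPM in CML replicates 1, 2 and 3 and to 388 to 668 CPM in WT, and 13 of 22 tested members rose and 0 fell. Over all tested genes 10.2% were called higher and 7.20% lower. Of the 13, 5 passed the low-count filter only through the CML libraries, where they are high. Leaving out 1 library changed the count of genes that rose to between 6 (without WT replicate 1) and 19 (without CML replicate 1), with 8 without WT replicate 2 and 0 falling each time. Gata2, Gata1 and Id2 were lowest in replicate 1 and highest in replicate 2 among the CML libraries, as was that sum. This order is not particular to those genes. Runx1, Tal1, Lmo2, Ets1 and Kit had it too, while Erg, Fli1 and Lyl1 did not. In CML replicate 1, the mast cell sum lay above every WT library while Gata2, at 41.7 CPM, lay within their range. The part of mast cell genes in the values of Gata2, Gata1 and the other members was not tested. Cpa3, the mast cell carboxypeptidase gene, was at 1336, 4601 and 2783 CPM in CML and 129, 55.4 and 97.5 CPM in WT, and so made up a large part of the CML sums. Mcpt1, Mcpt2 and Il13 were at 0 in all WT libraries. Of the 22 tested genes 9 were not called, among them Mcpt8 and Prss34 (log2 fold changes 2.22 and 0.30, adjusted p = 0.0982 and 0.871, edgeR). The list does not tell mast cells from basophils.

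**Figure D5:**
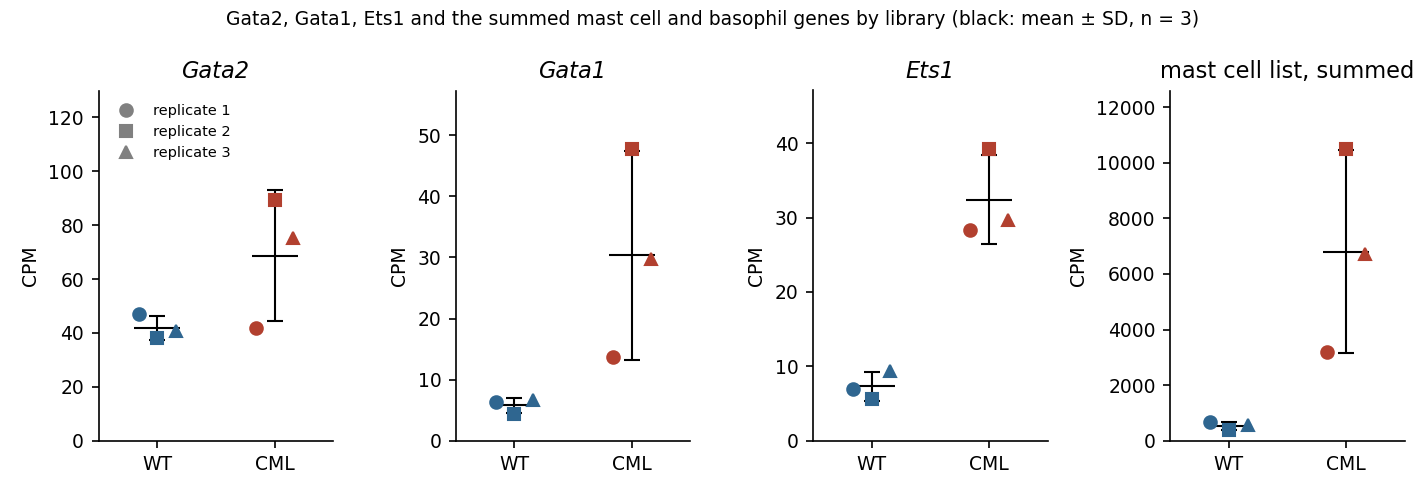
CPM of Gata2, Gata1, Ets1 and of the summed mast cell and basophil list (vertical axes, each from 0) in every library, with the mean ± SD in black. In CML, replicate 1 is lowest and replicate 2 highest in all 4 panels, and replicate 1 is within the WT range for Gata2 only.

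The other marker lists were smaller. Their counts stand beside the 10.2% of all tested genes called higher and the 7.20% called lower. Monocyte and macrophage genes rose in 6 of 10 tested members and fell in 0, and summed to 366 to 443 CPM in CML and 240.5 to 299 CPM in WT, with C1qa and C1qc at or near 0. Dendritic cell genes rose in 4 of 8 and fell in 0, with sums of 48.5 to 169 and 22.7 to 47.9 CPM, but 3 of the 4 passed the filter only through the CML libraries. In this list 1 gene was called higher without WT replicate 1, against 6 without CML replicate 1 and 2 without WT replicate 2 or 3. Without WT replicate 2, 1 dendritic gene was called lower. Megakaryocyte genes rose in 1 of 11 and fell in 3 (290.6 to 425 and 401 to 467 CPM), erythroid genes rose in 3 of 10 and fell in 2 (234 to 288 and 217 to 242 CPM), and endothelial genes rose in 1 of 10 and fell in 3 (257 to 315 and 243 to 316 CPM). Of the genes that rose, 2 of the 3 erythroid genes and the 1 endothelial gene passed the low-count filter only through the CML libraries, where they are high. Cdh5, which defines endothelium, was at or below 0.19 CPM in each library. Neutrophil genes rose in 0 of 10 and fell in 0 in the edgeR test (213 to 322 and 171 to 320 CPM). T cell genes rose in 2 of 3 tested, the B cell list had 1 tested gene, which rose, and the sums were at most 77.8 and 37.7 CPM. Of the 2 T cell genes that rose, 1 passed the low-count filter only through the CML libraries. Erythroid genes called higher numbered 8 without CML replicate 1, and those called lower 0 without WT replicate 1. Of the 10 tested gate and stem cell genes 0 rose and 3 fell, or 1 without WT replicate 2. The 3 were Slamf1, Cd48 and Hlf. Slamf1 (log2 fold change -0.80, adjusted p = 0.0470, edgeR) was called in 7 of 13 alternative fits. Cd48 (log2 fold change -2.00, adjusted p = 0.00111, edgeR) was called in all 13, and Hlf is given with the other progenitor factors. The count for this list does not measure the share of stem cells. The part of any of these cell types in the values of the 7 factors was not tested.

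The genes with the most similar profile were sought for the 3 called members among 11233 other genes with a mean of at least 5 CPM, by the root mean square difference of mean-centred log2 CPM over the 6 libraries. The nearest to Runx1 were Itpripl2 (0.012) and Htatip2 (0.044), and the nearest to Lmo2 were Ccnd2 (0.030), which encodes cyclin D2, and Cdc14a (0.056), a phosphatase gene. Ccnd2 was at 213, 277 and 248 CPM in CML and 376, 401 and 402 CPM in WT. The nearest to Erg were Golim4 (0.027) and Ssbp2 (0.035), and the latter is the LDB1-binding partner described with the partners.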

How the data were processed

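RNA was sequenced in 3 CML and 3 WT libraries, grouped by sample title. The authors deposited estimated counts per gene symbol, not scaled to a common total, of which 35.0 to 36.9% per library were not exactly whole. The submitters' processing notes list STAR 2.7.3a, Partek 8.0 and mm10 without roles. Annotation, strand setting and handling of shared reads were not given in those notes or the labels. Counts were rounded, filtered with filterByExpr (minimum count 10) and scaled by TMM. Groups were compared in R 4.3.3 by edgeR 4.0.16 (quasi-likelihood, robust, group as the only term) at a Benjamini-Hochberg adjusted p under 0.05. The code was tested on simulated data. Gene lengths and coordinates are from GENCODE M21 on GRCm38, the assembly of mm10.

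Alternatives were DESeq2 size factors, library totals, no filter, a mean count of at least 50, DESeq2 1.42.0, limma-voom 3.58.1, a replicate block and leaving out each library. The members and the gene lists were chosen with earlier results of these data known. All members and any tested paralogue or partner could be named. From other lists, up to 4 called genes with the lowest adjusted p, or the gene with the lowest p where none was called, and the 2 nearest profiles of each called member could be named. Cd34, Kit, Cdh5, Cd3e, Ly6a, Slamf1, the complement genes, Cpa3, Mcpt1, Mcpt2 and Il13 were named as gate genes, defining markers or well-known targets, some after their values were seen. Mcpt8 and Prss34 were also named after their values were seen. Some genes that the rule allows are not reported here. Read counts carry no molecular identifiers, so depth sets a limit on counting error only.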

Additional observations from a re-analysis of the deposited data

How the results depend on the processing

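Runx1 and Lmo2 were called in all 13 alternative fits, and Tal1, Fli1 and Lyl1 in none. Scaled by library totals, Erg was no longer called (-0.29), Fli1 turned to 0.088, and 732 genes were lower in CML against 1168. At a mean count of at least 50, Fli1 turned to 0.0055. With the DESeq2 Wald test Gata2 was called (0.71). Leaving out each library in turn gave log2 fold changes of 0.48 to 0.97 for Gata2, -0.44 to -0.37 for Erg, -0.043 to 0.030 for Fli1 and -0.12 to 0.21 for Lyl1, and a Tal1 to Lyl1 log2 ratio difference of -0.033 (without WT replicate 3) to 0.25, with -0.0018 without WT replicate 2. In those fits 1466 to 4122 genes were changed, 1011 to 2021 higher and 455 to 2101 lower. The cause was not tested. Without a low-count filter, 29299 genes were tested. Members called higher went from 2 to 1 for paralogues, from 4 to 2 for partners and from 5 to 3 for reported targets. They went from 4 to 2 for dendritic genes, from 3 to 6 for erythroid genes and from 4 to 2 for other progenitor factors. Members called lower went from 0 to 1 for paralogues, dendritic genes and neutrophil genes. They went from 2 to 0 for erythroid genes and from 2 to 1 for other progenitor factors.

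Same-numbered libraries did not deviate together (correlations of -0.021, -0.052 and 0.009), and no library correlated best with its own number. The labels name no pairing, and with 3 libraries a group these correlations cannot exclude one. With the replicate block 2807 genes were called against 2820, and no call of a member changed, while Gata1 (adjusted p = 0.0618) and Id2 (adjusted p = 0.0536) were no longer called and the mast cell and basophil genes called higher went from 13 to 9. For the ratios, the paired exact permutation test allows no p below 0.25. With 3 libraries a group, the 95% confidence intervals of Tal1, Fli1 and Lyl1 include both no change and changes of either sign.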
